A study of Homo sapiens with 3 samples.

Results

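Tetraspanins are small membrane proteins that cross the membrane several times and gather integrins, immunoglobulin-family proteins and enzymes into clusters known as tetraspanin-enriched microdomains. The 10 genes described here are TSPAN32, TSPAN4, TSPAN3, CD81, CD9, CD63, CD151, CD37, CD53 and CD82. They were chosen by name from the 33 human tetraspanin genes and matched by gene identifier to GENCODE release 29, out of 58735 genes listed in each library. On blood cells these proteins take part in adhesion, migration, antigen receptor signalling and the sorting of cargo into extracellular vesicles. Several of them, such as CD37 and CD53, are largely restricted to leukocytes, whereas CD63, CD81 and CD151 are made by most cell types.

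RNA was sequenced from cells labelled KG1a, a human acute myeloid leukaemia line, that had been infected with lentivirus. In 2 libraries the virus carried a short hairpin RNA against TRAF7, an E3 ubiquitin ligase, and the genotype is labelled TRAF7 knockdown. In 1 library it carried the control hairpin shCtrl, and the genotype is labelled wild type. The labels do not say whether the knockdown libraries come from separate hairpins or cultures, whether cells were selected after infection, or how long after infection they were harvested.

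Reads assigned to genes numbered 16221721 and 16254461 in knockdown libraries 1 and 2 and 16014485 in the control library. TRAF7 was at 15.6 and 18.3 FPKM (reads scaled for exon length and, as deposited, by a median-of-ratios factor per library) in the knockdown libraries, against 46.5 FPKM in the control, that is 33.6% and 39.4% of the control. All libraries carry the same batch label. Several markers went against the labelled line. CD34, the stem cell antigen for which KG1a is known, had 1 and 10 reads in the knockdown libraries and 0 in the control, where a count of 0 allows up to 0.0193 FPKM. FLT3 had no read in any library, CD44 had 2, 7 and 0 reads in the same order, and of the 7 markers fixed for the line only PTPRC and SPN averaged at least 1 FPKM. Of 6 erythroid markers 5 did, with a summed level of 168 and 153 FPKM in the knockdown libraries and 102 FPKM in the control, among them the transcription factor gene KLF1 at 61.7, 55.8 and 56.5 FPKM. Of 5 epithelial markers 4 did, with sums of 183, 178 and 167 FPKM. These 4 did not move together, as 3 were higher in both knockdown libraries and 1 lower. KRT8 was at 68.9 and 60.9 FPKM against 49.0 FPKM in the control, and KRT19 at 21.2 and 33.6 FPKM against 36.2 FPKM. The fifth marker, CDH1, had 2, 0 and 0 reads. None of the 5 B cell markers, the 7 monocyte and granulocyte markers or the 5 stromal and endothelial markers averaged 1 FPKM. The cells are therefore named only as labelled, and the part of these markers in the results was not tested.

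The coding sequences of the members share a motif by which the family is recognised. Its presence in genes chosen by family name is therefore a description and not a result. A cysteine-cysteine-glycine codon triplet (TGCTGCGGN, TGCTGTGGN, TGTTGCGGN or TGTTGTGGN, read in frame on the coding strand) stood in 10 of 10 members and in 23 of 23 other tetraspanin genes. The same triplet stood in 2.74% of 19649 protein-coding genes scanned. This motif of the large extracellular loop, whose cysteines form disulphide bonds, is the family's hallmark. In the members the triplet nearest codon 150 began between codons 144 and 156, and in 10 of 10 the surrounding 27 bases spanned an exon junction. Windows are shown for 6 members whose level lay on the same side of the control in both knockdown libraries, leaving out CD63. They are written 5′ to 3′, from GENCODE release 29 transcripts, with the codon triplet in capitals. The genes below the control come first.
TSPAN32: gtgtttctgTGCTGTGGGaagaagtct
CD53: tttctgcagTGTTGTGGTataaatggc
CD37: cagctgcgcTGCTGCGGCtggcactac
TSPAN4: gacttccgcTGCTGTGGCgtctccaac
CD151: gagttccacTGCTGTGGCagcaacaac
CD81: acgcttgacTGCTGTGGCtccagcaca
CD81, CD151 and TSPAN4 used the identical triplet TGCTGTGGC, and the 10 members used 6 different triplets. CD63, higher in both as deposited and not shown, used TGCTGTGGG, as did TSPAN32. The coding sequences were 660 to 963 bases long, and that of TSPAN32 was the longest.

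The members differed widely in level. CD63, a protein of late endosomes and vesicles, was the most abundant, at 92.5 and 99.4 FPKM in the knockdown libraries and 91.8 FPKM in the control. CD151, which binds laminin-binding integrins, followed at 48.4, 40.2 and 36.2 FPKM, and CD81, an entry receptor for hepatitis C virus, at 22.2, 20.1 and 18.7 FPKM. These 3 genes made up 88.3% and 86.2% of the summed FPKM of the 10 members in the knockdown libraries and 82.8% in the control. The summed FPKM itself was 185 in each knockdown library and 177 in the control. The values of CD63, CD151 and CD81 over the 3 libraries overlapped neither each other nor those of the next gene. TSPAN32, TSPAN4 and TSPAN3 came next, and the ranges of neighbours in this order overlapped. CD9, CD37 and CD53 followed at 1.10 to 2.63 FPKM, again with overlapping ranges, and CD82 was lowest at 0.174, 0.576 and 0.497 FPKM.

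**Figure D1:**
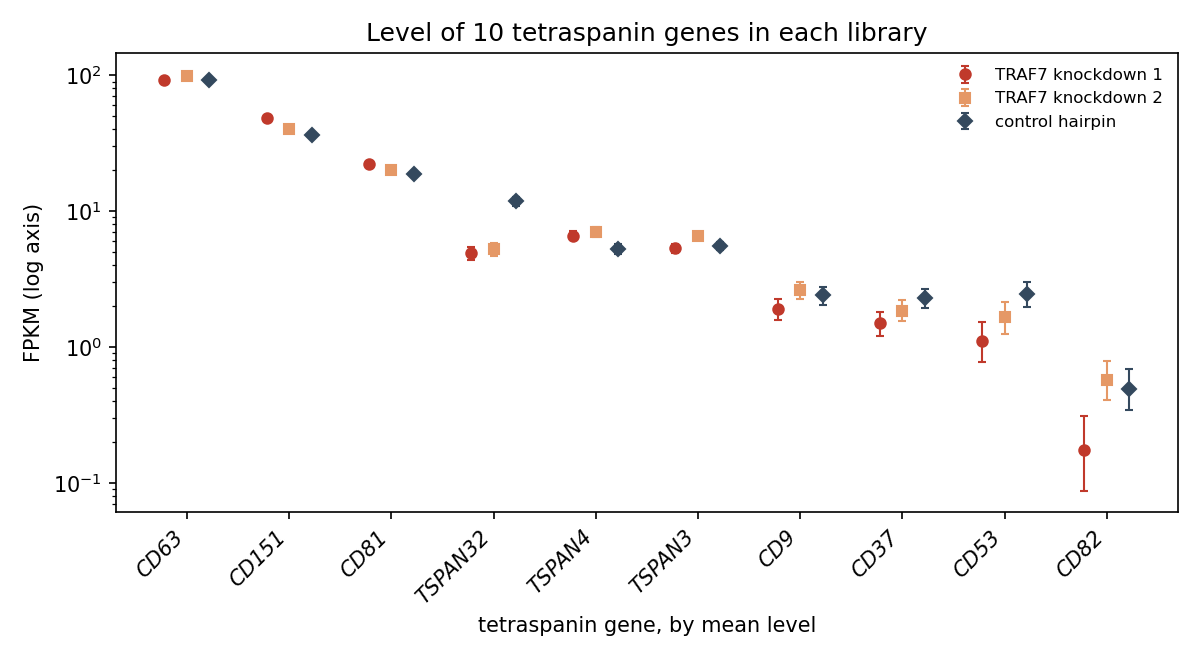
FPKM of the 10 tetraspanin genes on a log axis in TRAF7 knockdown 1, TRAF7 knockdown 2 and the control library. Bars are exact 95% Poisson intervals of the reads behind each value and cover counting error only. CD63 lies at 91.8 FPKM in the control, and TSPAN32 is the gene whose knockdown values, 4.90 and 5.25 FPKM, stand farthest below a control value of 11.8 FPKM.

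TSPAN32 was lower in both knockdown libraries, at 41.4% (95% counting interval 36.0 to 47.4) and 44.4% (38.8 to 50.6) of the control. TSPAN32, also known as TSSC6, is expressed in blood cells, and in mice its loss changes T cell proliferation and platelet function. The gene (ENSG00000064201, plus strand of chromosome 11 on GRCh38, 2301997 to 2318200) yielded 4.90 FPKM from 289 reads in knockdown 1, 5.25 FPKM from 324 reads in knockdown 2 and 11.8 FPKM from 758 reads in the control. The knockdown libraries lay close together, with a knockdown 1 to knockdown 2 ratio of 0.932 and a counting interval of 0.793 to 1.10, and the control lay above both. The log2 fold change fitted on log2(FPKM + 1) was −1.08 ± 0.17 (SE). Its adjusted p by limma was 0.369, taken over 12640 genes. In limma-voom on whole reads recovered from the FPKM values it was −1.22 ± 0.22, with an adjusted p = 0.00234. Among protein-coding genes alone limma's adjusted p was 0.0429, so the call depended on the test and on the genes tested.

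By limma, 0 of the 9 members that averaged 1 FPKM or more passed an adjusted p of 0.05, as did 0 of all 12640 genes (0%), while 1 member (TSPAN32) and 1161 genes (9.19%) had an unadjusted p under 0.05. By limma-voom 1 of 10 members passed, and it was lower; 0.865% of 15034 genes passed, 0.659% lower and 0.206% higher. On the log2(FPKM + 1) scale TSPAN32 was also the only member to differ 2-fold or more from control in each knockdown library, and with a pseudocount of 5 FPKM it did not. Over all genes tested 0.435% were at least 2-fold lower in both and 0.34% at least 2-fold higher. All members are protein-coding, and among the 9897 protein-coding genes tested 13 were at least 2-fold lower in both and 3 higher. Among the 9 members, 3 were lower in both knockdown libraries and 4 higher by any size, which sets 33.3% and 44.4% beside 30.8% and 42.5% of all genes. The shares of protein-coding genes were 27.8% lower and 46.5% higher. The members' median fitted log2 fold change was 0.06, beside 0.04 for all genes tested. Earlier work on these libraries had already named TSPAN32, so its place at the end of the range is a description. The fit has 1 residual degree of freedom, from the knockdown pair, and the lone control was taken to vary as they do. Each gene's spread was pooled with that of all genes tested, at a weight of 4.74 degrees of freedom in limma and 35.5 in limma-voom. Each p therefore rests mostly on the spread of other genes between the knockdown libraries, and that spread may be technical.

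The leukocyte tetraspanins CD53 and CD37 were both lower in the knockdown libraries, without passing the test. CD53, which regulates adhesion and signalling of lymphoid and myeloid cells (ENSG00000143119, chromosome 1, positions 110871188 to 110899928), was at 1.10, 1.66 and 2.45 FPKM in knockdown 1, knockdown 2 and the control, from 37, 58 and 89 reads. This put knockdown 1 at 45.1% of the control (counting interval 29.9 to 66.9) and knockdown 2 at 67.7% (47.7 to 95.2). CD37, a signalling tetraspanin of B cells and myeloid cells (ENSG00000104894, chromosome 19, positions 49335171 to 49343335), was at 1.498, 1.86 and 2.29 FPKM, from 97, 126 and 161 reads. Knockdown 1 stood at 65.4% of the control (50.3 to 84.6) and knockdown 2 at 81.3% (63.8 to 103), an interval that includes no difference. Their fitted log2 fold changes were −0.54 ± 0.26 and −0.30 ± 0.23 (SE), with limma adjusted p-values of 0.584 and 0.718. PTPRC, the pan-leukocyte antigen, was also lower in both, at 5.60 and 6.53 FPKM against 9.54 FPKM in the control. The 7 markers of the labelled line summed to 51.2 and 39.96 FPKM in the knockdown libraries and 56.5 FPKM in the control, most of it from SPN. The part of these markers in the differences was not tested. In bulk RNA fewer cells of a type and less RNA per cell cannot be told apart.

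**Figure D2:**
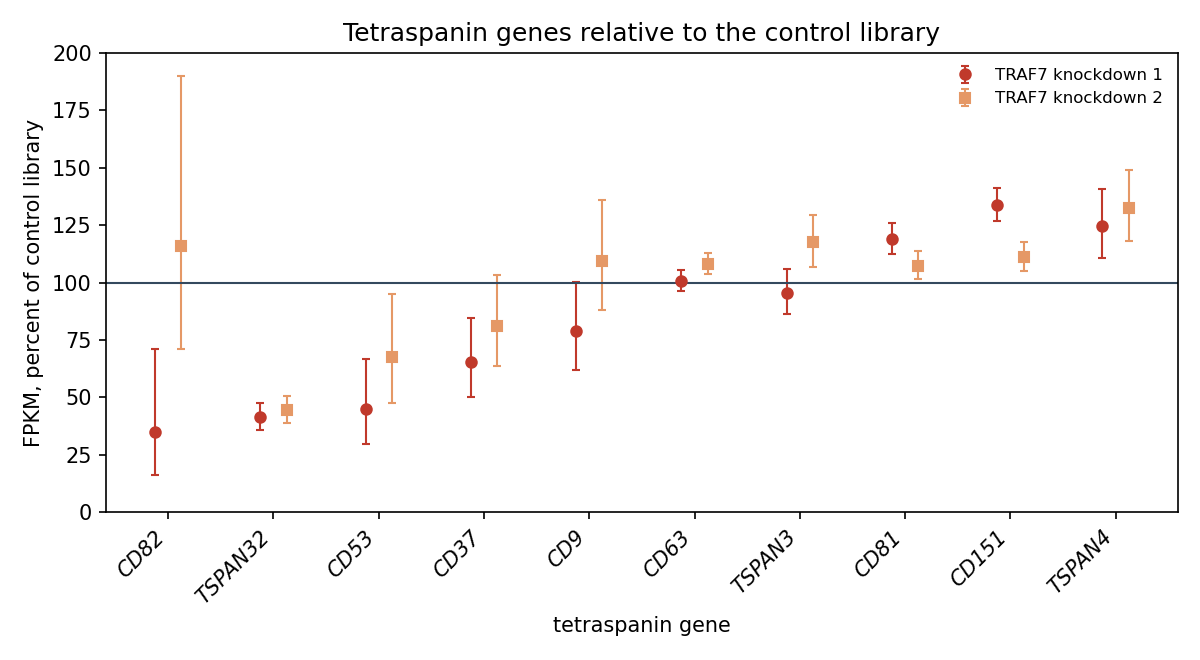
Level of each tetraspanin gene in TRAF7 knockdown 1 and TRAF7 knockdown 2 as a percentage of the control library, with exact 95% counting intervals; the line marks 100%. TSPAN32 lies at 41.4% and 44.4%, CD53 and CD37 lie below the line in both libraries, and TSPAN4 and CD151 lie above it in both.

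TSPAN4, CD151 and CD81 were higher in both knockdown libraries, by smaller steps. TSPAN4, a protein of migrasomes, the vesicles left on retraction fibres of moving cells (ENSG00000214063, chromosome 11, positions 842808 to 867116), was at 6.63 and 7.04 FPKM in the knockdown libraries and 5.31 FPKM in the control. That is 125% (111 to 141) and 133% (118 to 149) of the control, with a log2 fold change of 0.31 ± 0.17 (limma adjusted p = 0.632). CD151 (ENSG00000177697, chromosome 11, positions 832843 to 839831) stood at 134% (127 to 141) and 111% (105 to 118) of the control. CD81 (ENSG00000110651, chromosome 11, positions 2376177 to 2397419) stood at 119% (112 to 126) and 107% (101 to 114). Their limma adjusted p-values were 0.687 and 0.801. For both genes knockdown 1 also exceeded knockdown 2 beyond counting error, by 1.20-fold (1.14 to 1.27) for CD151 and 1.11-fold (1.05 to 1.17) for CD81, so the knockdown libraries differed from each other by more than knockdown 2 did from the control.

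The remaining 4 members showed no shared direction. CD63 (ENSG00000135404, chromosome 12, positions 55725323 to 55729707) was at 101% (96.4 to 105) and 108% (104 to 113) of the control, higher in both as deposited. It was split between the libraries after a further median-of-ratios rescaling, taken over genes averaging at least 1 FPKM, and after scaling to all assigned reads. After quantile normalization CD63 was lower in both. Its fitted log2 fold change was 0.06 ± 0.15 (limma adjusted p = 0.929). TSPAN3, which in mouse models of acute myeloid leukaemia supports leukaemia growth (ENSG00000140391, chromosome 15, positions 77041404 to 77083984), was at 5.33 and 6.56 FPKM in the knockdown libraries, on either side of 5.58 FPKM in the control (log2 fold change 0.07 ± 0.20). CD9, a tetraspanin of platelets and of the egg surface (ENSG00000010278, chromosome 12, positions 6199715 to 6238271), was at 1.90 and 2.63 FPKM, on either side of 2.40 FPKM in the control (log2 fold change −0.07 ± 0.24). CD82, a metastasis suppressor also called KAI1 (ENSG00000085117, chromosome 11, positions 44564427 to 44620363), rested on 11, 38 and 34 reads in knockdown 1, knockdown 2 and the control and averaged less than the 1 FPKM needed for the limma test. It stood at 35.1% of the control (16.0 to 70.9) in knockdown 1 and at 116% (71.1 to 190) in knockdown 2. In these 4 genes the knockdown libraries differed from each other beyond counting error, by a knockdown 1 to knockdown 2 ratio of 0.931 for CD63, 0.811 for TSPAN3, 0.722 for CD9 and 0.302 (0.139 to 0.604) for CD82. The same held for 6 of the 10 members in all. Counting intervals leave out the spread between libraries.

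Of the other 23 tetraspanin genes 8 averaged at least 1 FPKM, 15 did not, and 7 had no read in any library. Those with no read were TSPAN2, TSPAN6, TSPAN8, TSPAN11, TSPAN16, TSPAN19 and UPK1A. TSPAN13 was the most abundant, at 48.8 and 64.1 FPKM in the knockdown libraries and 61.5 FPKM in the control, slightly above CD151 in knockdown 1 and well above it in the other libraries. TSPAN18, which binds the store-operated calcium channel subunit ORAI1 and promotes calcium entry, was lower in both, at 0.405 FPKM (37 reads) and 1.51 FPKM (144 reads) against 2.60 FPKM (258 reads) in the control. That is 15.6% (10.7 to 22.0) and 58.0% (46.9 to 71.3) of the control. Its log2 fold change on log2(FPKM + 1) was −0.94 ± 0.39 (limma adjusted p = 0.55). In limma-voom it was −1.71 ± 0.38 (adjusted p = 0.0163), a larger fall than the −1.22 of TSPAN32 in that fit. TSPAN18 alone of the 8 passed limma-voom, and its knockdown libraries differed by a ratio of 0.268 (0.182 to 0.388). By limma 0 of the 8 passed, and 0 had an unadjusted p under 0.05.

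TSPAN14, TSPAN17 and TSPAN33 belong to the TspanC8 group, which carries the protease ADAM10 to the cell surface and of whose 6 genes these 3 averaged at least 1 FPKM. TSPAN14 was at 4.35 and 4.73 FPKM against 4.13 FPKM in the control, TSPAN17 at 10.9 and 10.2 FPKM against 11.1 FPKM, and TSPAN33 at 0.748 and 1.79 FPKM on either side of 1.16 FPKM. TSPAN31 was at 3.01 and 3.75 FPKM against 3.73 FPKM. ROM1, known from photoreceptor discs, was at 1.65 and 1.53 FPKM against 1.69 FPKM, and TSPAN9, known from platelets, at 1.28 and 1.27 FPKM against 1.63 FPKM. Over the 17 tetraspanin genes tested, 5 were higher in both knockdown libraries, 7 lower and 5 split. That is 29.4% higher and 41.2% lower, beside 42.5% and 30.8% of all genes, and the median log2 fold change was −0.07 beside 0.04.

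**Figure D3:**
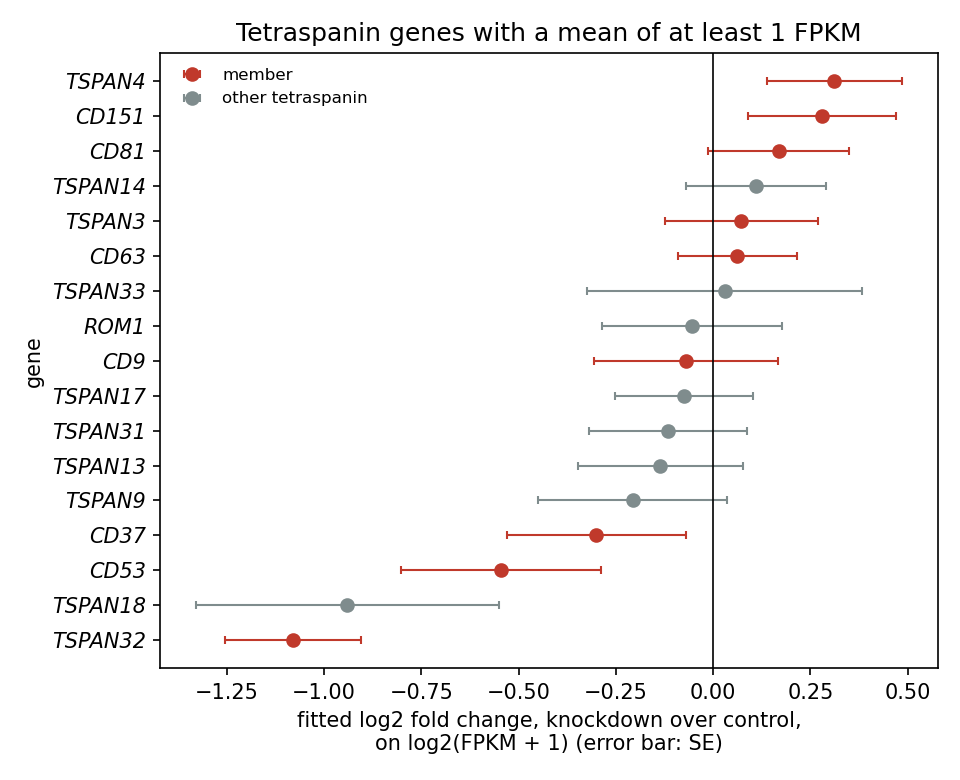
Fitted log2 fold change, TRAF7 knockdown over control, on log2(FPKM + 1), for the 17 tetraspanin genes that averaged 1 FPKM or more; bars are SE. TSPAN32 (−1.08) and TSPAN18 (−0.94) stand apart at the lower end, and TSPAN4 (0.31) is at the upper end. In limma-voom, which is not drawn, TSPAN18 (−1.71) lies below TSPAN32 (−1.22).

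Of the members, 5 lay on chromosome 11, and 4 of these, TSPAN4, CD151, TSPAN32 and CD81, sat in short stretches near its start. C11orf21 overlaps TSPAN32 on the opposite strand, with 141 exon bases in common, and it was lower in both knockdown libraries too, at 4.35 and 5.11 FPKM against 7.53 FPKM in the control. That is 57.7% (49.8 to 66.8) and 67.9% (59.1 to 77.8) of the control, with a log2 fold change of −0.58 ± 0.19 (limma adjusted p = 0.49). The shared bases are 3.72% of the exon length of TSPAN32. The sources do not state that counting used strand, so reads in those bases cannot be told apart. CD81 and TSSC4, farther along, were at or above the control: TSSC4 was at 14.8 and 14.5 FPKM against 13.5 FPKM.

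POLR2L, which encodes a small RNA polymerase subunit, lies on the opposite strand between CD151 and TSPAN4, and all 3 were higher in both knockdown libraries. POLR2L was at 145 and 115 FPKM against 55.6 FPKM in the control, that is 261% (243 to 280) and 207% (192 to 223), and passed limma-voom (adjusted p = 0.000716) but not limma (0.346). It shares 257 exon bases with CD151, which are 22.5% of the exon length of POLR2L and 6.53% of that of CD151, so part of the reads of either gene may belong to the other. TSPAN4 starts 262 bases beyond POLR2L and shares no exon base with it. CHID1, beyond TSPAN4, was at 23.5 and 20.2 FPKM against 15.2 FPKM. On the other side CRACR2B was at 14.2 and 13.6 FPKM against 17.9 FPKM, PNPLA2 at 33.5 and 29.4 FPKM against 33.7 FPKM, and RPLP2 at 598 and 612 FPKM against 532 FPKM, the last turning lower in both under quantile normalization. Around the members on other chromosomes, AC009779.2, antisense to CD63 with 237 exon bases in common, was at 2.18 and 2.26 FPKM against 2.09 FPKM in the control. TEAD2, which shares 319 exon bases with CD37, was at 8.60 and 5.72 FPKM on either side of 7.15 FPKM. Those bases are 7.67% of the exon length of CD37 and 10.7% of that of TEAD2. Part of the reads of CD37 may therefore belong to TEAD2, which was the more abundant gene. BLOC1S1 and GDF11, near CD63, were at 7.80 and 6.68 FPKM against 5.54 FPKM and at 2.14 and 2.29 FPKM against 2.61 FPKM. PEAK1, near TSPAN3, was at 1.24 FPKM in each knockdown library against 1.20 FPKM. Over chromosome 11, 40.1% of 710 genes tested were higher in both libraries and 31.7% lower, beside 42.5% and 30.8% of all genes.

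**Figure D4:**
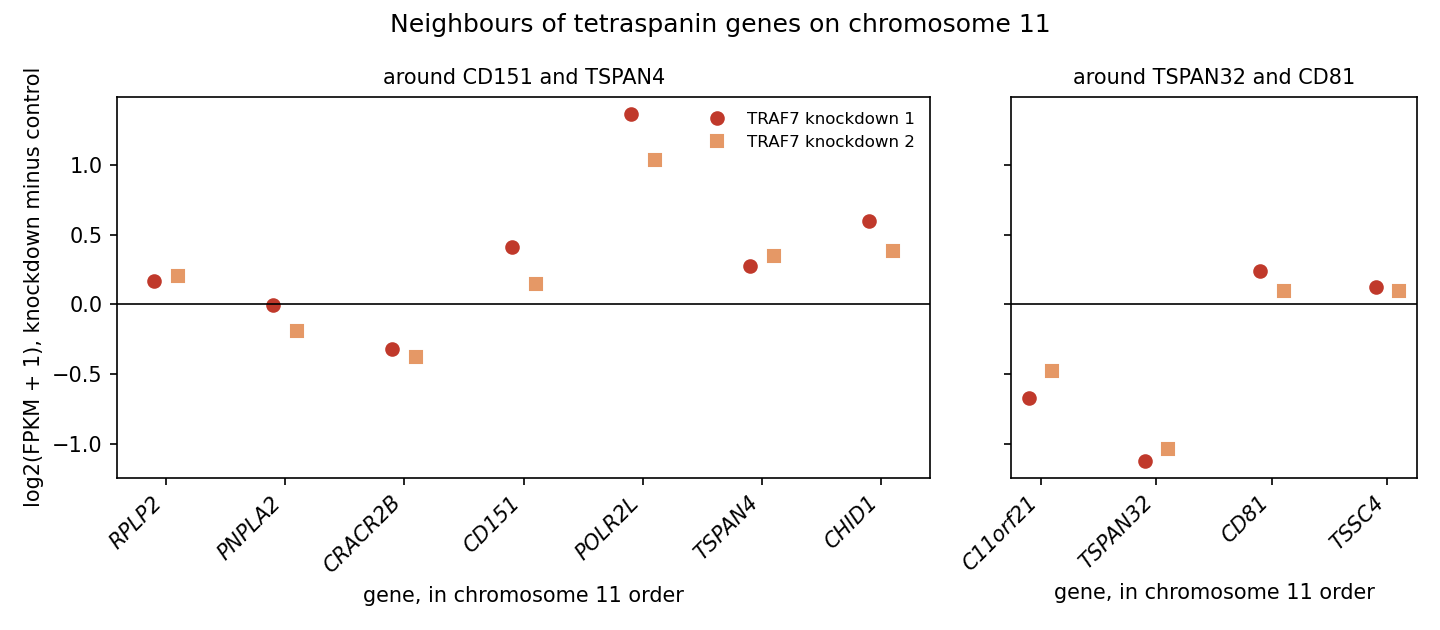
Difference in log2(FPKM + 1), TRAF7 knockdown 1 and TRAF7 knockdown 2 minus control, for genes around CD151 and TSPAN4 and around TSPAN32 and CD81, in chromosome 11 order (not to distance). C11orf21 and TSPAN32 lie below 0 in both libraries, and CD151, POLR2L, TSPAN4 and CHID1 above 0 in both; RPLP2 lies above 0 as deposited and below it after quantile normalization.

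The start region that TSPAN4 and POLR2L share is shown because these neighbours were higher together, followed by the start region of C11orf21, which lies within TSPAN32, and that of CD53; where several are listed for a gene, the most upstream is given. Each holds 250 bases before and 50 after a gene start, from RefSeq on GRCh38.p14, written 5′ to 3′ on the gene's strand with GC boxes (GGGCGG on either strand) in capitals. TSPAN4 at chr11:842602-842901 (plus strand) shares 178 bases with the window of POLR2L, which reads the other way. C11orf21 is at chr11:2303091-2303390 (minus strand) and CD53 at chr1:110870960-110871259 (plus strand).
TSPAN4: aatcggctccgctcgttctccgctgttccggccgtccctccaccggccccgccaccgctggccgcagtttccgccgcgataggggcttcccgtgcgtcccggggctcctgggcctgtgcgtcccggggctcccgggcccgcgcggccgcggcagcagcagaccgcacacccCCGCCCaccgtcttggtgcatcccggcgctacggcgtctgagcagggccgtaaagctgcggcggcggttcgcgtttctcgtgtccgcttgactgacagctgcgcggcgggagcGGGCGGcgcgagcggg
C11orf21: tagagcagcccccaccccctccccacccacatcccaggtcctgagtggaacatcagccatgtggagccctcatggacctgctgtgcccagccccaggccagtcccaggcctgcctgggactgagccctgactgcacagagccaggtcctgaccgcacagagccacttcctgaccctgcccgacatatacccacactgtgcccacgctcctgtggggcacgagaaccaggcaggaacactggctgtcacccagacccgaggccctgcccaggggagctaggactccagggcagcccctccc
CD53: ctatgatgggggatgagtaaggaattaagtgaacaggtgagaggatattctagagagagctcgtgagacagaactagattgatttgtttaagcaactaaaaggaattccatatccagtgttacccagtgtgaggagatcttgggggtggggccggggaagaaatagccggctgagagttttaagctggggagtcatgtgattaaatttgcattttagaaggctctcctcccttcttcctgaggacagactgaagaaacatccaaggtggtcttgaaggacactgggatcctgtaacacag
The TSPAN4 window held 2 GC boxes and those of C11orf21 and CD53 held 0, beside 44.95% of 35116 start regions with at least 1. An E-box (CANNTG), the element of basic helix-loop-helix factors such as TWIST1, was found 1 time in TSPAN4, 1 time in C11orf21 and 2 times in CD53, and 68.7% of all start regions held at least 1. The GATA motif AGATAA was found in none of the 3, beside 10.3% of all start regions. The GC content was 75.3% for TSPAN4, 66.7% for C11orf21 and 45.7% for CD53, beside a median of 58.7%. These matches describe letters and not occupied sites.

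Among 6417 other protein-coding genes that averaged 5 FPKM or more, HIST1H4K, SCN9A, CCND1, MMP17 and TRAPPC6A had the pair of log2 differences closest to those of TSPAN32. The distances in the plane of the knockdown 1 and knockdown 2 differences were 0.106, 0.244, 0.264, 0.272 and 0.296. They rest on 3 libraries with a shared control. CCND1, cyclin D1, was at 4.23 and 4.30 FPKM against 8.80 FPKM in the control, and MMP17, a membrane-anchored metalloproteinase, at 2.78 and 4.07 FPKM against 8.85 FPKM. SCN9A, a voltage-gated sodium channel, was at 3.33 and 4.37 FPKM against 8.32 FPKM. TRAPPC6A, a subunit of a vesicle tethering complex, was at 17.6 and 24.3 FPKM against 41.6 FPKM. HIST1H4K, at 7.00 and 6.90 FPKM against 15.2 FPKM, is a member of the histone H4 gene family, whose near-identical copies make its counts uncertain.

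Genes that work with tetraspanins are read against all genes tested, of which 0% passed limma, 42.5% were higher in both knockdown libraries and 30.8% lower, with a median log2 fold change of 0.04. Of 14 integrin genes 4 averaged at least 1 FPKM, 0 passed limma or limma-voom and 0 had an unadjusted p under 0.05, 2 were lower in both knockdown libraries and 0 higher, and the median log2 fold change was −0.17. ITGB1, a beta chain of CD151-associated integrins, was at 31.6 and 36.7 FPKM against 34.2 FPKM in the control. ITGA5, the fibronectin receptor alpha chain, was at 19.9 and 20.8 FPKM against 21.7 FPKM. ITGB4 was at 1.68 and 1.86 FPKM against 2.56 FPKM, and the platelet integrin chain ITGA2B at 1.13 and 2.07 FPKM against 2.03 FPKM.

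Of 18 other membrane partners 9 were measured at this level, 3 higher in both knockdown libraries (33.3%) and 5 lower (55.6%), and the median was −0.15. None of the 9 passed limma, and 1 (TFRC) was at an unadjusted p under 0.05. PTGFRN and IGSF8, immunoglobulin-family proteins that bind CD9 and CD81, were at 6.95 and 6.63 FPKM against 8.65 FPKM and at 14.0 and 13.3 FPKM against 16.3 FPKM in the control. TFRC, the transferrin receptor, rose by limma-voom (adjusted p = 0.0375; limma 0.455), to 95.7 and 72.0 FPKM in the knockdown libraries, against 49.5 FPKM in the control. The complement regulator gene CD46 was at 25.5 and 21.6 FPKM against 18.3 FPKM.

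For the vesicle and lysosome routes in which CD63 travels, 0 of 18 measured exosome and multivesicular body genes (of 21) and 0 of 20 measured lysosomal genes (of 21) passed limma or limma-voom, and in both lists 0 had an unadjusted limma p under 0.05. Of the exosome list 8 were higher in both knockdown libraries and 4 lower, with a median of 0.10. The 8 are 44.4%, near the 42.5% of all genes. Of the lysosomal list 8 were higher (40.0%) and 9 lower (45%), with a median of −0.02. The small GTPase genes RAB11A, at 17.3 and 17.8 FPKM against 13.0 FPKM in the control, RAB7A, at 70.1 and 68.3 against 56.2 FPKM, and RAB35, at 34.9 and 26.8 against 24.7 FPKM, were above the control in both. So was STAM, an endosomal sorting subunit, at 11.6 and 10.7 against 9.09 FPKM. Among lysosomal genes LAMP1 was at 26.6 and 17.1 FPKM against 14.3 FPKM, GLA, alpha-galactosidase, at 20.2 and 19.8 against 15.2 FPKM, and the protease gene CTSD at 13.9 and 14.8 against 11.2 FPKM. GAA, acid alpha-glucosidase, was at 12.4 and 14.7 FPKM against 16.8 FPKM.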

How the data were processed

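The authors deposited FPKM values, 1 per Ensembl gene and library, per the file headers. The library totals these values imply, taken over the geometric mean of assigned reads, equal median-of-ratios factors of the recovered reads (0.963 and 1.01 in the knockdown libraries, 1.04 in the control), so they do not follow the totals of assigned reads. BWA, Bowtie and hg19 are named, without roles, per the submitters' processing notes; the counting tool and strand setting are not given in the sources used here. All 58735 identifiers matched GENCODE release 29 (GRCh38), from which names, exon lengths and coordinates come. FPKM multiplied by exon length and divided by the library's step came to whole reads, within 0.05 of a read, for 100% of nonzero values. Counting intervals are exact 95% Poisson intervals, or exact conditional intervals for ratios; they and the floor of 3 reads cover counting error only.

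The main test was limma-trend (limma 3.58.1, R 4.3.3) on log2(FPKM + 1), restricted to genes averaging 1 FPKM or more, with Benjamini-Hochberg adjustment over all genes tested; fold changes on that scale understate those of low genes. limma-voom used recovered reads (mean of at least 10) and the authors' library divisors. Both were run on simulated data with planted changes larger than that of any member, where they gave the right direction. How often they find changes of the sizes seen here was not tested. Members, lists and tests were chosen with earlier results of these data known. Named genes are all members, other tetraspanins averaging 1 FPKM or more, up to 4 genes with the lowest p per list, protein-coding or antisense genes within 20 kb of a member, and the 5 genes most like TSPAN32; marker genes, tetraspanins with no read, TSPAN5 and TSPAN12 are named outside this rule, after their values were seen. Lists cover integrin partners, other membrane partners, exosome and lysosomal genes, and markers of the line and of megakaryocyte and platelet, B, T, monocyte and granulocyte, erythroid, epithelial, and stromal and endothelial cells. Alternatives were other filters, pseudocounts and scalings, no trend, and each knockdown library alone; restriction to protein-coding genes was added after the data were seen. Some genes of the lists are not reported here.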

Additional observations from a re-analysis of the deposited data

How the results depend on the processing

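No member passed limma's adjusted p of 0.05 with the settings reported, and the count of members became 1 (TSPAN32) in limma-voom on recovered reads and 1 (TSPAN32) among protein-coding genes only, a setting chosen after the data were seen. Over all genes the count was 0 as reported, 3 at a mean of at least 5 FPKM, 130 in limma-voom and 13 among protein-coding genes. The number of members differing 2-fold or more in each knockdown library was 1 as reported and 0 with a pseudocount of 5 FPKM; leaving out each knockdown library gave 1 and 1. TSPAN32 had a negative log2 fold change under every setting run, between −1.22 and −0.74, with an adjusted p between 0.0987 and 0.649 in the other settings with a test. CD63 turned to −0.21 under quantile normalization and −0.043 when rescaled to all assigned reads, TSPAN3 to −0.017 when rescaled to all assigned reads and −0.056 with knockdown 1 alone (0.20 with knockdown 2 alone), and CD9 to 0.092 with knockdown 2 alone (−0.23 with knockdown 1 alone); the cause was not tested. No paired analysis was possible because there is 1 control library. CD82, with 11 to 38 reads, lay below the control beyond counting error in knockdown 1 (16.0% to 70.9%), and in knockdown 2 (71.1% to 190%) no difference was detectable at this depth.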

Other observations

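Markers of other blood cells give the setting in which these tetraspanins were measured. Of 7 megakaryocyte and platelet markers 2 averaged at least 1 FPKM, ITGA2B and GP1BA, with a summed level of 2.35 and 3.77 FPKM in the knockdown libraries and 4.48 FPKM in the control, and GP1BB, GP9 and PF4 had no read in any library. Of 5 T cell markers CD3D alone did, at 4.36 and 5.69 FPKM against 6.63 FPKM in the control, while CD3E was at 0 and 0.108 FPKM against 0.0208 FPKM. The 5 B cell markers summed to 1.26 and 1.01 FPKM against 0.690 FPKM, and the 7 monocyte and granulocyte markers to 0.0681 and 0.145 FPKM against 0.0920 FPKM, with S100A8, S100A9 and ELANE at no read. Of the tetraspanins averaging less than 1 FPKM, TSPAN5 and TSPAN12 were chosen after their values were seen. TSPAN5 had 51 and 97 reads in the knockdown libraries and 44 in the control, and TSPAN12 had 27 and 53 reads against 28 in the control.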
